A study of Mus musculus with 26 samples.

Results

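The genes described here encode the core enzymes of 2 systems that mark chromatin for silencing, DNA methylation and Polycomb repressive complex 2 (PRC2). They are the DNA methyltransferases Dnmt1, Dnmt3a and Dnmt3b, the Dnmt1 partner Uhrf1, the TET dioxygenases Tet1, Tet2 and Tet3, and the PRC2 core subunits Ezh2, Eed and Suz12. These 10 genes were chosen by name from the 45318 genes counted in the RNA-seq libraries, and all 10 had enough counts to be tested. DNA methylation is copied onto the new strand after replication by Dnmt1, which Uhrf1 brings to hemimethylated sites, while Dnmt3a and Dnmt3b place methyl groups at sites that were unmethylated. The TET enzymes oxidize 5-methylcytosine and so begin its removal. PRC2 methylates histone H3 at lysine 27. Its catalytic subunit is Ezh2, and Eed and Suz12 are required for a stable and active complex. Both systems are frequently altered in tumor cells, and Dnmt1, Uhrf1 and Ezh2 are known for high levels in dividing cells.

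The libraries were of polyadenylated RNA from 4T1 cells, a mammary carcinoma line derived from a BALB/c mouse, and they address what loss of the nuclear long noncoding RNA MaTAR25 does to gene expression. The 2 control libraries are labelled wild type and were made, per the methods, from cells given a guide RNA against Renilla luciferase, and the labels do not say whether they came from 1 clone or 2. The knockout cells are labelled MaTAR25-/- and came from 2 lines, KO1 (3 libraries) and KO2 (4 libraries), each grown from a single sorted cell after Cas9 removed a segment over the MaTAR25 transcription start site. Each line is therefore 1 clone, and clonal differences and the deletion cannot be told apart within it. The study also made ChIRP-seq, in which biotin-labelled oligos against an RNA recover the chromatin it contacts, from 4T1 cells labelled wild type and from mammary tumor cells labelled primary, of strain FVB. The latter are titled NDL and carry the genotype label MMTV-PyMT, while the study's text calls them cNeu, of MMTV-Neu-NDL origin, a name its methods give to the cell line NF639, so the sources differ on what these cells were.

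The libraries held 25367211 to 61110585 gene counts (median 38555701). MaTAR25 had 35 and 30 counts in control, 2, 7 and 0 in KO1, and 11, 1, 9 and 6 in KO2, a log2 fold change of -2.63 ± 0.82 (SE) with an adjusted p of 0.0561 by edgeR's quasi-likelihood test. Of the mammary epithelial markers, 7 of 8 passed the filter on low counts, and their summed level was 3297 to 3440 CPM (counts scaled to an equal library total) in control, 3107 to 4296 in KO1 and 1605 to 3081 in KO2. The fibroblast markers summed to between 11.8 and 47.6 CPM in every library, the leukocyte markers to between 4.94 and 29.4 CPM, and the endothelial markers to at most 1.77 CPM. In bulk RNA, fewer cells with a transcript and less transcript per cell cannot be told apart. The labels name the libraries of a group as replicates without saying that they were separate cultures, so p-values measure the spread between these libraries.

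The promoter sequences of the genes give one view of what they share. RefSeq start sites gave 15 windows for the 10 genes (GRCm38.p6, 250 bases before to 50 after the start), and each was searched on both strands for the E2F consensus, written as TTTCCCGC, TTTCGCGC, TTTGCCGC or TTTGGCGC. E2F factors drive genes of the G1 to S transition. A match lay in 4 of the 15 windows, of the genes Dnmt1, Uhrf1, Ezh2 and Suz12, and in 2.27% of all 32851 windows. The 4 windows are shown as a description of the sequence, with the matches in capitals. Each is written 5′ to 3′ on the gene's strand.
Dnmt1, chr9:20952574-20952873, minus strand: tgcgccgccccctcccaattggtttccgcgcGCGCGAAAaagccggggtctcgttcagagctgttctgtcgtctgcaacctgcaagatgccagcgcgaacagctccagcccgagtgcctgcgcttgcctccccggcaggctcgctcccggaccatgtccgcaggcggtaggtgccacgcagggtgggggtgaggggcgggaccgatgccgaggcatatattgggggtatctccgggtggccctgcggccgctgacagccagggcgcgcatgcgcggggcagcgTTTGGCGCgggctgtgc
Uhrf1, chr17:56304063-56304362, plus strand: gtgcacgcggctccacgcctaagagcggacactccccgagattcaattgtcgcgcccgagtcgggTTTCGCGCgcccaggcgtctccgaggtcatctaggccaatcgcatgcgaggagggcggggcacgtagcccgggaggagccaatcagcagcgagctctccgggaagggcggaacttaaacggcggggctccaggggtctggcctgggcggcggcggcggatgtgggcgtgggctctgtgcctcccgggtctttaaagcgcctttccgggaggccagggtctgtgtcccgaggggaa
Ezh2, chr6:47594981-47595280, minus strand: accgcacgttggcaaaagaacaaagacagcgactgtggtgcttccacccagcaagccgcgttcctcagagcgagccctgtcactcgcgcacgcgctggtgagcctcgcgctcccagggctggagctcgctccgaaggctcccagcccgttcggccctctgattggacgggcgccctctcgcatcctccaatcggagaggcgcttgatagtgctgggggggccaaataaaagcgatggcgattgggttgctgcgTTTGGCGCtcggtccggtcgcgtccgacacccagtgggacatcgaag
Suz12, chr11:79992856-79993155, plus strand: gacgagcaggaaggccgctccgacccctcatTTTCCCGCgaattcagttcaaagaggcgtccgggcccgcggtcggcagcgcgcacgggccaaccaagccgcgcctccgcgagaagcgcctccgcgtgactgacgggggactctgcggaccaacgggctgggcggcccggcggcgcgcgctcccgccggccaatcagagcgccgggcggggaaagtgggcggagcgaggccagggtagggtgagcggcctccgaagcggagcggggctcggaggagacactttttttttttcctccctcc

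With the start site as base 1 and the base before it as -1, the Dnmt1 matches began at -219, where the reverse complement GCGCGAAA is read, and at 34. The Uhrf1 match began at -185, the Ezh2 match at 4 and the Suz12 match at -219. No other window of the 10 genes held these letters, including those of Dnmt3a, Dnmt3b and the TET genes, which says only that the letters are not in those windows. The cell cycle homology region, TTTGAA, lay in 4 of the 15 windows against 17.9% of all windows, and the Sp1 box, GGGCGG, in 11 of 15 against 35.7%. The windows of the 10 genes held 2 to 57 CpG dinucleotides, against a median of 7 over all windows, and the richest was that of Tet2. A match is a description of the sequence, and no binding of these factors was measured here.

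In KO cells the maintenance genes Dnmt1 and Uhrf1 rose, the de novo methyltransferase Dnmt3a and the dioxygenase Tet3 fell, and the 3 PRC2 core genes did not pass the test. Dnmt1 was 2.74-fold and Uhrf1 3.31-fold higher by the ratio of mean CPM, while Dnmt3a was 3.06-fold and Tet3 2.33-fold lower. The same 4 genes passed the test, in the same directions, in KO1 and in KO2 taken alone, which share the 2 control libraries. Of all 15023 genes tested between KO and control cells, 11.9% were called higher and 10.7% lower at an adjusted p below 0.1 (edgeR, Benjamini-Hochberg), so 2 higher and 2 lower of 10 is close to the background, and the counts alone set these genes apart from no others. In KO1 the shares over all genes were 15.9% higher and 15.7% lower, and in KO2 16.5% higher and 15.0% lower. The median log2 fold change of the 10 genes was -0.13, beside 0.06 over all genes tested.

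**Figure D1:**
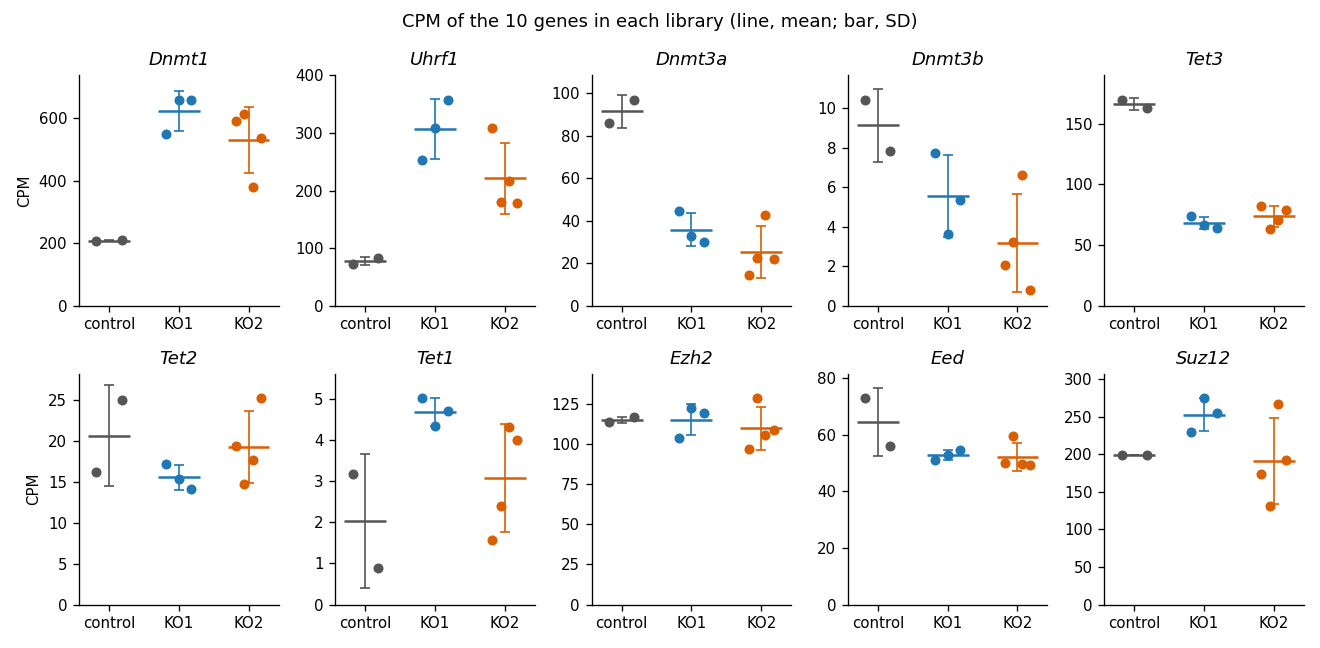
CPM of each of the 10 genes in the 2 control, 3 KO1 and 4 KO2 libraries, with 1 point a library, the group mean as a line and the SD as a bar; every axis starts at 0. All 7 KO points of Dnmt1 and Uhrf1 sit above both control points, and all 7 of Dnmt3a, Dnmt3b and Tet3 sit below them.

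Dnmt1 (chr9:20907209-20959888, minus strand) copies methylation after replication. It was at 206.9 and 208.7 CPM in control, at 547.6, 658.6 and 658.3 in KO1, and at 589.0, 613.5, 379.5 and 536.7 in KO2. The lowest KO library, KO2 replicate 3, was still above both control libraries. On the log2 scale the change was 1.45 ± 0.21 (SE, adjusted p = 0.00327, edgeR), and it was 1.58 in KO1 (adjusted p = 0.00172, edgeR) and 1.35 in KO2 (adjusted p = 0.00299, edgeR).

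Uhrf1 (chr17:56303321-56323486, plus strand) reads hemimethylated CpG and recruits Dnmt1. Its values were 73.0 and 82.9 CPM in control, 253.8, 309.1 and 358.2 in KO1, and 309.3, 179.9, 217.0 and 179.0 in KO2. The KO libraries did not overlap the controls, and 3 of the 4 KO2 libraries were below all 3 KO1 libraries. The log2 fold change was 1.73 ± 0.30 (SE, adjusted p = 0.00618, edgeR). The call was lost when control replicate 1 was left out (log2 fold change 1.65, adjusted p = 0.109, edgeR).

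Dnmt3a (chr12:3806007-3914443, plus strand) is a de novo methyltransferase. It was at 85.8 and 97.0 CPM in control, at 44.8, 32.8 and 30.0 in KO1, and at 14.3, 22.4, 42.7 and 22.1 in KO2. Every KO library was below both controls, and KO2 replicate 3 was the only KO2 library at KO1 levels. The log2 fold change was -1.61 ± 0.34 (SE, adjusted p = 0.0132, edgeR), with -1.35 in KO1 and -1.85 in KO2. The call needed both control libraries, since the adjusted p from edgeR was 0.118 without control replicate 1 and 0.141 without control replicate 2. In KO1 it was also lost without KO1 replicate 3 (adjusted p = 0.101, edgeR).

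Dnmt3b (chr2:153649450-153687730, plus strand), the second de novo enzyme, was far less abundant. It had 10.4 and 7.81 CPM in control, 7.74, 3.62 and 5.36 in KO1, and 2.06, 3.20, 6.63 and 0.818 in KO2. All 7 KO libraries were below both controls, but KO1 replicate 1 was within 1 CPM of control replicate 2. The log2 fold change of -1.12 ± 0.62 (SE) did not pass (adjusted p = 0.250, edgeR). In KO2 alone it was -1.52 with an adjusted p of 0.115 by edgeR, which DESeq2 put at 0.0664. Without KO2 replicate 3 the KO2 value was -2.19 (adjusted p = 0.0190, edgeR). At 40 to 486 counts a library, Dnmt3b had the second fewest counts of the 10 genes after Tet1.

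Tet3 (chr6:83362373-83459084, minus strand) was the main TET gene of these cells and the member with the smallest adjusted p. Its values were 169.8 and 162.8 CPM in control, 74.0, 66.1 and 64.4 in KO1, and 82.1, 63.1, 70.4 and 78.6 in KO2. The 7 KO libraries spanned 63.1 to 82.1 CPM, with no overlap with either control. Between KO and control the log2 fold change was -1.22 ± 0.14 (SE, adjusted p = 0.00125, edgeR), and it was -1.29 in KO1 and -1.18 in KO2. With each library left out in turn it stayed between -1.26 and -1.18 and was called every time (largest adjusted p = 0.0387, edgeR).

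Tet2 (chr3:133463679-133545139, minus strand) had 16.3 and 25.1 CPM in control, 17.2, 15.4 and 14.2 in KO1, and 19.4, 14.8, 17.7 and 25.3 in KO2. The groups overlapped, and the log2 fold change of -0.22 ± 0.26 (SE) did not pass (adjusted p = 0.598, edgeR). Tet1 (chr10:62804570-62908996, minus strand), known for its role in embryonic stem cells, was the least abundant, at 3.18 and 0.885 CPM in control, 5.02, 4.35 and 4.71 in KO1, and 1.56, 2.40, 4.32 and 4.01 in KO2. The 2 controls differed by more than any 2 KO1 libraries, and KO2 overlapped them. The log2 fold change of Tet1 was 0.88 ± 0.57 (SE, adjusted p = 0.316, edgeR), and it was 2.10 without control replicate 1 and 0.25 without control replicate 2.

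None of the PRC2 core genes passed the test in KO against control cells, which does not show that they were unchanged. Ezh2 (chr6:47530139-47595341, minus strand) had 114.2 and 116.8 CPM in control, 104.2, 122.5 and 119.2 in KO1, and 97.1, 128.7, 105.9 and 108.7 in KO2. The KO libraries lay on both sides of the controls, and the log2 fold change was -0.04 ± 0.14 (SE, adjusted p = 0.877, edgeR). Eed (chr7:89954654-89980983, minus strand), which binds trimethylated lysine 27, had 72.9 and 56.0 CPM in control, 51.2, 52.9 and 54.6 in KO1, and 50.2, 59.8, 49.8 and 49.3 in KO2. Of the 7 KO libraries 6 were below both controls, with KO2 replicate 2 between them, and the log2 fold change was -0.29 ± 0.15 (SE, adjusted p = 0.201, edgeR).

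Suz12 (chr11:79993106-80034123, plus strand), the scaffold subunit of PRC2, varied most between KO libraries of the 3. It had 199.4 and 199.2 CPM in control, 230.0, 274.8 and 254.8 in KO1, and 173.8, 131.0, 267.3 and 192.7 in KO2. All KO1 libraries were above the controls, while 3 of the 4 KO2 libraries were below them and KO2 replicate 3 was at 267.3 CPM. Over both clones the log2 fold change was 0.13 ± 0.26 (SE, adjusted p = 0.774, edgeR), with 0.35 in KO1 and -0.06 in KO2, and neither passed. Fitted with only the KO1 and control libraries, Suz12 passed in KO1 (log2 fold change 0.35, adjusted p = 0.0499, edgeR), and so did Tet1 (log2 fold change 1.19, adjusted p = 0.0909, edgeR). In that fit 7752 of all 14342 genes tested were called, against 4750 of 15023 in the fit with 3 groups.

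**Figure D2:**
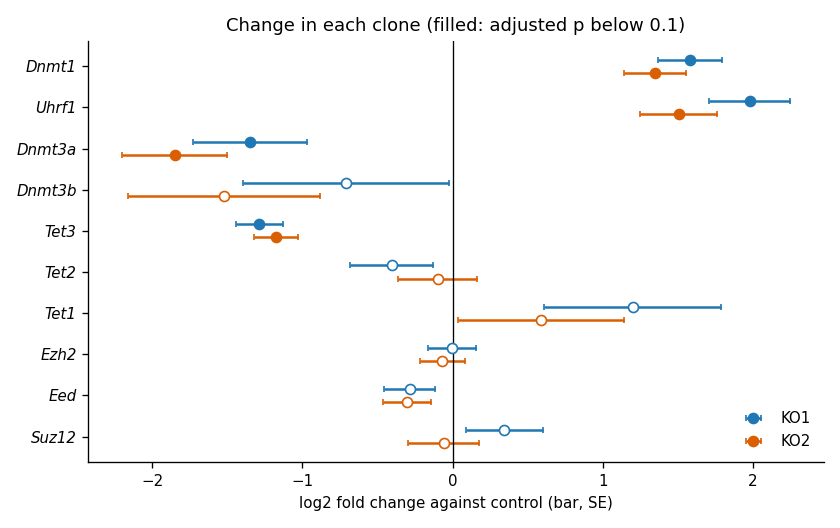
Log2 fold change of each gene in KO1 and in KO2 against the same 2 control libraries, with the SE as a bar and filled points at an adjusted p below 0.1 (edgeR). Dnmt1, Uhrf1, Dnmt3a and Tet3 are filled in both clones, and the Ezh2 points lie at -0.0023 and -0.07.

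Counted without a model, KO and control libraries did not overlap for 5 of the 10 genes, 2 of them higher in KO cells and 3 lower. Over all genes tested, 16.9% were higher without overlap and 17.6% lower. The third gene on the lower side was Dnmt3b, which the test did not call.

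The 2 clones were compared directly in the same fit, as a change in both against control does not show that they changed alike. No gene of the 10 was called (edgeR), against 10.2% of all genes higher and 9.43% lower in KO2 than in KO1. At an unadjusted p below 0.05 there was 1, Uhrf1, which was lower in KO2 with a log2 difference of -0.47 ± 0.21 (SE, adjusted p = 0.168, edgeR), and DESeq2 called 0 as well. Suz12 had -0.40 ± 0.21 (SE, adjusted p = 0.233, edgeR) and Dnmt3a -0.50 ± 0.32 (SE, adjusted p = 0.332, edgeR). Without KO2 replicate 3, 3 genes passed, all lower in KO2: Dnmt3a (-0.87, adjusted p = 0.0313, edgeR), Dnmt3b (-1.48, adjusted p = 0.0696) and Suz12 (-0.61, adjusted p = 0.0321). In that fit 13.5% of all genes were called lower in KO2 and 14.0% higher. Without KO2 replicate 1, Uhrf1 passed (-0.68, adjusted p = 0.0454, edgeR), where 7.22% of all genes were called lower and 7.68% higher. KO2 replicate 3 had the lowest Dnmt1 of the KO libraries and the highest Dnmt3a, Dnmt3b and Suz12 of its clone.

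Levels of different genes were compared as CPM per kb of summed exon length. In control the order was Suz12 (40.3), Dnmt1 (28.2), Uhrf1 (18.3), Ezh2 (17.3), Eed (16.8), Tet3 (9.96), Dnmt3a (5.49), Dnmt3b (1.79), Tet2 (1.23) and Tet1 (0.132). The neighbours Uhrf1 and Ezh2, and Ezh2 and Eed, overlapped between libraries, and the other neighbours did not. In KO cells Dnmt1 came first (77.1 ± 13.1, SD, n = 7), followed by Uhrf1 (60.6 ± 16.4, SD, n = 7) and Suz12 (44.0 ± 10.9, SD, n = 7), where Uhrf1 overlapped both of its neighbours. Ezh2, Eed, Tet3 and Dnmt3a followed in the same order as in control. Several places in control depended on the length used. With the length of the longest transcript Ezh2, whose summed exons are 6678 bases and longest transcript 2787 bases, moved from place 4 to place 2, Dnmt1 was in place 3, Eed in place 4 and Uhrf1 in place 5. Tet2 then stood above Dnmt3b. In KO cells the first 3 places were the same by either length.

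**Figure D3:**
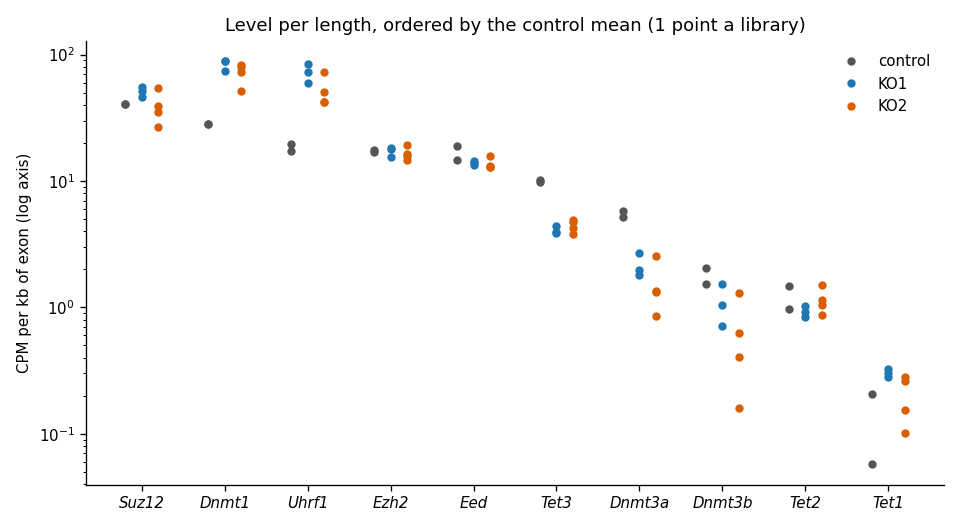
CPM per kb of exon on a log axis for each gene, ordered by the control mean, with 1 point a library in control, KO1 and KO2. Dnmt1 and Uhrf1 move from 28.2 and 18.3 in control to 77.1 and 60.6 in KO cells, the first 2 places there, and Tet3 and Dnmt3a are lower in KO cells at unchanged places 6 and 7.

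Per length, the DNA methyltransferase transcripts shifted almost wholly to Dnmt1. Dnmt1 made up 79.4 to 79.6% of the summed CPM per kb of the 3 genes in control and 93.0 to 98.4% in KO cells. Dnmt3a went from 14.6 to 16.4% in control to 1.06 to 4.64%, and Dnmt3b from 4.29 to 5.79% to 0.216 to 2.35%. These shares use summed exon length and depend on it. By the longest transcript, Dnmt1, Dnmt3a and Dnmt3b averaged 35.4, 9.44 and 2.11 CPM per kb in control. In KO cells they averaged 96.9, 3.08 and 0.973. The sum of the 3 was 35.3 and 35.7 CPM per kb in control and 55.3 to 92.1 in KO cells, so the total was larger while its de novo part was smaller.

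The TET sum moved the other way. It was 11.3 CPM per kb in both controls and 4.81 to 6.47 in KO cells. Tet3 made up 86.3 to 89.7% of it in control and 72.8 to 79.7% in KO cells, with Tet2 at 8.51 to 13.2% and 16.8 to 23.2%. These shares are descriptions of transcript levels and also depend on the length used. Neither methylation nor hydroxymethylation of DNA was measured.

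**Figure D4:**
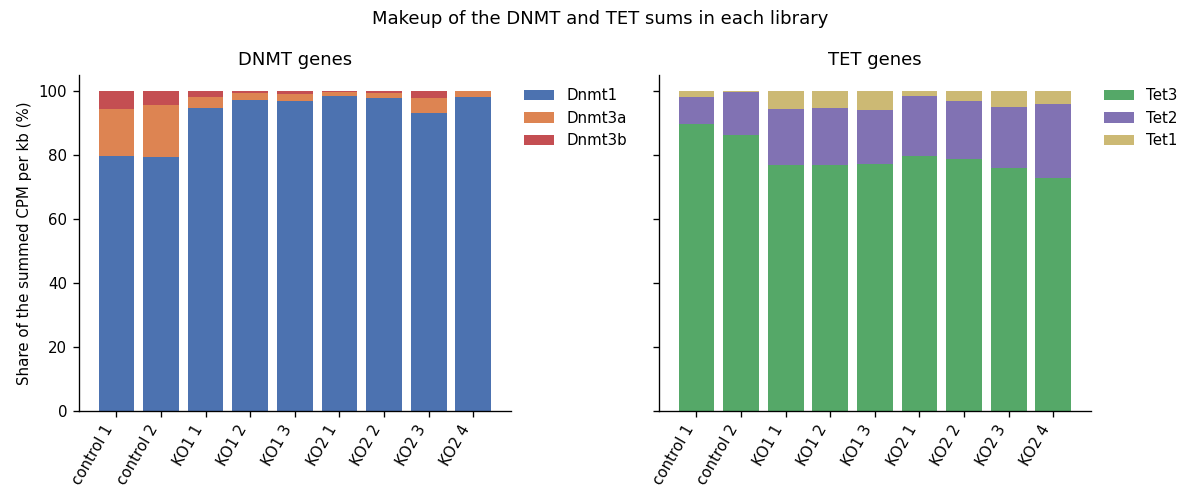
Share of each gene in the summed CPM per kb of the DNMT genes (left) and the TET genes (right), with 1 stacked bar a library. The Dnmt1 part grows from 79.4 to 79.6% in the controls to at least 93.0% in every KO library, and the Tet3 part is at most 79.7% in every KO library.

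The partners of the DNA methylation enzymes changed in both directions. Of 19 listed genes 18 were tested, with 3 called higher and 3 lower, and their median change was -0.02 (log2) beside 0.06 over all genes. Over all genes tested, 11.9% were called higher and 10.7% lower, so the counts alone do not set this list apart. Hells, a chromatin remodeler needed for normal DNA methylation, rose (log2 fold change 1.29 ± 0.18, SE, adjusted p = 0.00260, edgeR), as did the NuRD subunit Mbd3 (1.24 ± 0.18, SE, adjusted p = 0.00298, edgeR). Gadd45a, a stress-induced gene linked to demethylation, fell (-3.16 ± 0.46, SE, adjusted p = 0.00317, edgeR), as did the methyl-CpG reader Zbtb4 (-0.70 ± 0.21, SE, adjusted p = 0.0525, edgeR). The other 2 called genes, named after their values were seen, were Idh2, which rose (0.99), and the Uhrf1 paralog Uhrf2, which fell (-0.58). Uhrf1 and Uhrf2 thus moved in opposite directions.

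The enzymes that supply methyl groups, through folate and S-adenosylmethionine, also divided, with 3 of 12 tested genes called higher and 3 lower (13 listed, median 0.16). The shares over all genes, 11.9% higher and 10.7% lower, stand beside these counts, and no enrichment was tested. Ahcy, which clears the product inhibitor S-adenosylhomocysteine, rose (1.20 ± 0.24, SE, adjusted p = 0.0112, edgeR), and so did the cytosolic Shmt1 (1.02 ± 0.15, SE, adjusted p = 0.00317, edgeR). Among those called lower was the mitochondrial folate enzyme Mthfd2 (-1.36 ± 0.36, SE, adjusted p = 0.0322, edgeR). Leaving out either control library left 1 gene called lower in each of these lists, and 1 called higher in the methyl supply list.

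Around the PRC2 core, 2 of 11 accessory genes were called higher and 0 lower (median 0.06), against 11.9% and 10.7% of all genes tested. Taken alone, KO1 had 1 higher and 1 lower, and KO2 had 2 higher and 2 lower. Over all genes tested, 15.9% were called higher and 15.7% lower in KO1, and 16.5% and 15.0% in KO2. The 2 called over the 7 pooled KO libraries were the histone chaperone Rbbp7 (0.80 ± 0.24, SE, adjusted p = 0.0512, edgeR) and Phf19, a Polycomb-like protein (0.74 ± 0.24, SE, adjusted p = 0.0631, edgeR), and neither was called without either control library. Of the 2 tested demethylases of lysine 27, Kdm6a rose (0.93 ± 0.18, SE, adjusted p = 0.00903, edgeR), a call also lost without either control library. PRC1 complexes ubiquitinate histone H2A, and only some of them read the PRC2 mark. Of 19 genes of PRC1 subunits, 3 were called lower and 0 higher, with a median of -0.35. They were Pcgf1 (-1.08 ± 0.23, SE, adjusted p = 0.0137, edgeR), Rybp (-0.90 ± 0.21, SE, adjusted p = 0.0190, edgeR) and Rnf2, named after its value was seen (-0.64 ± 0.22, SE, adjusted p = 0.0817, edgeR). None of the 3 was called without either control library, in fits where far fewer genes were called over all genes. Taken alone, KO1 had 5 of the 19 PRC1 genes called lower and 1 higher, and KO2 had 8 lower and 1 higher. The shares of each clone over all genes, given above, stand beside these counts.

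Genes that DNA methylation or PRC2 commonly keep silent gave few values, as most were too low to test. Of 39 Hox genes 12 were tested, with 4 called lower and 0 higher (median -0.29), among them Hoxa7 (-0.79 ± 0.25, SE, adjusted p = 0.0591, edgeR) and Hoxa9 (-0.77 ± 0.24, SE, adjusted p = 0.0598, edgeR). The other 2 Hox genes called lower, Hoxa13 and Hoxd4, averaged under 1 CPM. In KO1 alone 5 Hox genes were called lower and 3 higher, and the latter, named after their values were seen, were Hoxa3 (0.67, adjusted p = 0.0981, edgeR), Hoxa5 (0.71, adjusted p = 0.0854, edgeR) and Hoxa6 (0.65, adjusted p = 0.0530, edgeR). In KO2 alone 4 were called lower and 0 higher. Over all genes tested, 10.7% were called lower in KO against control, 15.7% in KO1 and 15.0% in KO2. The shares called higher were 15.9% in KO1 and 16.5% in KO2. The summed level of the 39 was 247.4 to 248.7 CPM in control, 291.7 to 365.3 in KO1 and 211.7 to 319.2 in KO2, above both controls in every KO1 library and in 2 of 4 KO2 libraries. Leaving out either control library left 0 Hox genes and 0 germline genes called lower. Of 14 germline genes 2 were tested and 1, Taf7l, was called lower at a mean of 0.118 CPM. The summed level of the 14 was 9.27 to 11.9 CPM in control and 5.60 to 9.29 CPM in KO cells. Most of it came from Sycp1, a gene of the synaptonemal complex of meiosis, which averaged 9.80 CPM in control, 7.64 in KO1 and 7.06 in KO2 and did not pass (log2 fold change -0.42, adjusted p = 0.282, edgeR).

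Transcripts of S phase moved with Dnmt1 and Uhrf1. Of 20 listed S phase genes 19 were called higher and 0 lower, at a median of 1.45 (log2), and they included the licensing factor Cdc6 (2.78 ± 0.23, SE, adjusted p = 0.000460, edgeR) and the helicase subunit Mcm4 (2.33 ± 0.26, SE, adjusted p = 0.00125, edgeR). Their summed level was 2371 to 2589 CPM in control, 5607 to 7246 in KO1 and 5216 to 6036 in KO2, and 14 were called higher without either control library. The Dnmt1 change of 1.45 and the Uhrf1 change of 1.73 lay within the range of this list, and the Ezh2 change of -0.04 lay below all of it. In the study's own BrdU labelling, KO1 cells had a larger share in G2 than control cells. The share in S phase was given only for a single control tube and a single KO tube, the latter labelled with a new voltage. It was smaller in the KO tube. The study also counted fewer KO than control cells in culture. Transcript levels alone do not give the share of cells in S phase, and how the transcripts and that share relate here was not tested. The part of cell cycle composition in the Dnmt1 and Uhrf1 values was not tested.

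**Figure D5:**
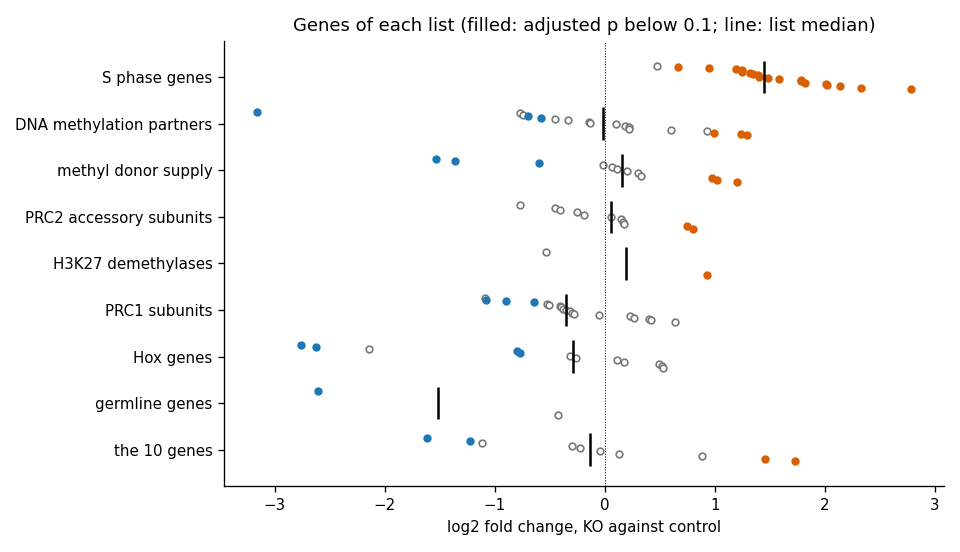
Log2 fold change of each tested gene in KO against control cells, by list, with filled points at an adjusted p below 0.1 (orange higher, blue lower) and the list median as a line. The S phase median lies at 1.45, and the medians of the methylation partners and the PRC2 accessory genes lie at -0.02 and 0.06.

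The ChIRP-seq peak lists give a second readout of these genes, the places where MaTAR25 chromatin was recovered. Each list pools its replicates, so there is no error and no test. By nearest promoter, 9 of the 10 genes had a peak in the 4T1 total-pool list (all 14 oligos) against 59.6% of the genes tested, and 9 had one in the NDL list against 58.0%. The odd-numbered and even-numbered oligos used alone each gave 7, against 52.4% and 52.9%. With peaks of a score of at least 100, 4 genes remained in the total-pool list against 26.1% of genes tested. These shares are over all genes tested and were not matched for gene length, so no enrichment can be read from them.

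The strongest peak lay in an intron of Suz12 at chr11:80008540-80009295, with a score of 700.5 and rank 272 of 76806 in the total-pool list. It was at rank 130 of 64607 in the even-pool list and rank 318 of 70329 in the NDL list, and the odd-pool list had no peak there. An intron of Dnmt1 held a peak in all 4 lists, at chr9:20940417-20941352 in the total-pool list (score 415.6, rank 1477). Ezh2 also had a peak in all 4 lists, at chr6:47535191-47535815, which is annotated to the promoter of a transcript that starts near the 3′ part of the gene. Weaker peaks of Tet1 and Tet3 recurred in all 4 lists too. In the total-pool list they were at chr10:62872024-62872523 (score 40.4) and chr6:83457654-83458153 (score 22.0). The next highest score after the Suz12 peak of the total-pool list was 632.5 (rank 1575), for an odd-pool peak upstream of Dnmt3a at chr12:3802137-3803869. The even-pool list had a peak with a score of 27.4 there, and the total-pool and NDL lists had none. Dnmt3a had the most peaks, 7 in the total-pool list and 9 in the NDL list, spread over its introns and alternative starts. Uhrf1 had 1 peak in the odd-pool, total-pool and NDL lists (score 22.0, rank 62981 in the total-pool list) and none in the even-pool list, and Tet3 had 3 by nearest promoter in the total-pool list, of which none reached a score of 100.

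The peaks were also searched, in both orientations, for runs of 12 or more bases identical to 1 of the 14 oligos. Such a run was found in 4 of 31 peaks of these genes in the total-pool list (12.9%), and in 24.2% of the whole list. The shares were 22.7% against 23.8% in the odd-pool list, 8.33% against 19.9% in the even-pool list and 9.38% against 23.6% in the NDL list. No peak of Suz12, Uhrf1, Ezh2, Eed, Tet1 or Dnmt3b in any list held one. The longest run, of 14 bases, was shared by a Tet2 peak and oligo 4 of the even pool, and Tet2 was not called. That peak was in the odd-pool and total-pool lists. The even-pool list gave no peak on chromosome 3, but it had 1 at overlapping coordinates of chromosome 2, with a score of 92.1. The total-pool list had 0 peaks at those coordinates of chromosome 2. The odd-pool peak upstream of Dnmt3a, with a score of 632.5, held 13 bases of the reverse complement of oligo 11, of the odd pool. This match was in a peak of the odd-pool list only. The 2 longest matches among genes that were called and that recurred across lists are shown. Each is on the genome plus strand (GRCm38) with the match in capitals, and the oligo has the same stretch in capitals.
Peak upstream of Dnmt1, chr9:20961069-20961131: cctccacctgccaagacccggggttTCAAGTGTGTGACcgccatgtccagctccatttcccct
Oligo 9: caGTCACACACTTGAcacat
Intron peak of Dnmt3a, chr12:3853793-3853855: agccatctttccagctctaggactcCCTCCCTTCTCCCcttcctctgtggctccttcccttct
Oligo 12: aataGGGAGAAGGGAGGctc

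The Dnmt1 stretch matches the reverse complement of 13 bases of oligo 9, of the odd pool, and the peak over it was in the odd-pool, total-pool and NDL lists and not in the even-pool list. The Dnmt3a stretch matches the reverse complement of 13 bases of oligo 12, of the even pool, and the peak over it was in the even-pool, total-pool and NDL lists and not in the odd-pool list. Whether these peaks, or the odd-pool peak upstream of Dnmt3a, reflect RNA contact or recovery by the oligo itself was not tested.

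The even-pool list limits what can be said of Dnmt3b and Tet2, on chromosomes 2 and 3. It gave 8877 peaks on chromosome 2 and 0 on chromosome 3. Its 2 peaks assigned to Dnmt3b overlapped no total-pool peak of chromosome 2, and each overlapped 1 total-pool peak at the same coordinates of chromosome 3. Over all 8877 peaks, 43.8% overlapped a total-pool peak of chromosome 2 and 35.7% one at the same coordinates of chromosome 3. Without these chromosomes, 6 of 8 genes had an even-pool peak, against 54.9% of the genes tested.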

How the data were processed

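RNA-seq: reads of poly(A) RNA were aligned by the authors using STAR (GRCm38), and HTSeq assigned them to GENCODE vM5 genes. The deposited values are raw counts per gene, and no source used here states the strand setting. ChIRP-seq: the authors mapped reads with Bowtie2, pooled replicates and called peaks with HOMER against a Ppib pulldown, and the deposited peak lists hold a score per peak. Rows that name no gene held 33.9 to 37.0% of counts and were not used. In KO2 replicate 2 every gene row occurs 3 times with the same count, and 1 was kept. Lengths, positions and symbols came from GENCODE vM21 (44585 of 45318 identifiers had a symbol) and promoters from RefSeq.

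Counts were tested with edgeR 4.0.16 in R 4.3.3 (TMM, filterByExpr, quasi-likelihood test, Benjamini-Hochberg over 15023 genes, threshold 0.1). KO against control pooled the 7 KO libraries, and KO1, KO2 and their difference came from 1 fit with 3 groups. CPM used TMM-scaled library sizes. The biological coefficient of variation was 42.0% and 32.5% in the 2 fits. The script was tested on simulated counts. Alternatives were DESeq2 1.42.0, RLE factors, other filters on low counts, other fits, a stricter threshold, the replicate number as a block, and leaving out each library. No 2 libraries were alike within sampling noise. Oligo matches and the even-pool count without chromosomes 2 and 3 were added after seeing the data.

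The genes and lists were chosen with earlier results of these data known. Named genes were all 10 members, MaTAR25 and, of each list, the 2 genes called higher and the 2 called lower with the largest change among those with a mean of at least 1 CPM. One gene that this rule names is not reported here. Antisense genes overlap Dnmt3a, Tet2, Ezh2, Eed and Suz12 but had at most 68 counts in any library.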

Additional observations from a re-analysis of the deposited data

Results flagged for a closer look

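Among the 4 KO2 libraries, Eed was at 59.8 CPM in replicate 2, and the other 3 lay between 49.3 and 50.2 CPM. Its gap to the nearest library was 0.916 of the group's range, above the 95% critical value of Dixon's test for 4 values. Of the 10 genes tested in this way 1 stood out, and chance gives about 1 in 20. Without that library Eed passed the test in KO2 (log2 fold change -0.37, adjusted p = 0.0954, edgeR).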

How the results depend on the processing

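Dnmt1 and Tet3 were called in KO against control cells under every alternative run, Uhrf1 under all but 1 (without control replicate 1), and Dnmt3a under all but the 2 that leave out a control library. Leaving out 1 library gave 2 to 4 called members in KO against control, lowest without control replicate 1, and 0 to 3 in KO2 minus KO1. Over the companion lists it gave 19 to 52 called genes against 44. Of 280 fold changes of members under the other alternatives, 272 kept their direction and side of the threshold, 5 gained a call and 3 changed sign, all near 0: Ezh2 in KO1 with only the 2 groups compared (0.00072), and Eed in KO2 minus KO1 with at least 10 counts in every library (0.00179) and with the replicate block (0.00833). Of 360 with 1 library left out, 336 kept both, 6 lost and 7 gained a call, and 11 changed sign. The ranges of those that changed sign were -0.487 to 0.127 for Tet2 in KO against control, -0.363 to 0.250 for Tet2, -0.0429 to 1.81 for Tet1 and -0.265 to 0.0837 for Suz12 in KO2, -0.0458 to 0.0675 for Ezh2 in KO1, and -0.0825 to 0.0103 for Eed in KO2 minus KO1. Causes were not tested.

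With the replicate block, 4 members were called in each comparison with control and 0 between clones, as without it, while over all genes 1952 were called in KO against control against 3392. Same-numbered libraries did not deviate together (correlations -0.196 to 0.0558 over 7 pairs, beside -0.154 to 0.159 over 19 others), which gave no sign of pairing by number. The deviations of the 2 controls from their mean mirror each other. The pairs are therefore few and not independent, and they cannot show that the libraries were unpaired. Without control replicate 1 or 2, 462 and 574 genes were called over all genes, as 1 control library then stands for the group and is assumed to vary like the others. The blocked fit gave 1736 genes in KO2 minus KO1 against 2944, and the fits with only the 2 groups compared gave 7752 in KO1 against 4750 and 1932 in KO2 minus KO1. By the longest transcript Ezh2 ranked 2 in control and 4 otherwise, and Dnmt1, Uhrf1, Eed, Dnmt3b and Tet2 also changed places. With peaks of a score of at least 100, the members with a peak were 4 in the total-pool, even-pool and NDL lists and 3 in the odd-pool list. Control has 2 libraries, and Tet1 and Dnmt3b had 29 to 486 counts a library, the fewest of the 10 genes. How much of their spread is counting error was not tested.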
